A study of Solanum lycopersicum with 6 samples.

Results

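Expression of 6 clock-associated genes was examined in epicotyls, the stem section above the cotyledons, of tomato (Solanum lycopersicum, cultivar Managua RZ) seedlings grown under positive or negative DIF, the difference between day and night temperature. The rule for the genes was a list of identifiers and used no measured value, though it was drawn up with earlier results of these data known. They comprise 3 ELF3-like genes (Solyc08g065870, Solyc11g070100 and Solyc12g095900), LUX (Solyc06g005680), FKF1 (Solyc01g005300) and ZTL (Solyc07g017750). The array carried 34527 genes under tomato identifiers, and each of these 6 was represented by 1 of the 43803 probes that are not controls. The gene names follow the definition of the set, because the files hold identifiers only, and these identifiers place the genes on chromosomes 8, 11, 12, 6, 1 and 7 in the order given. Seedlings were 14 d old after 7 d of treatment with a 16 h photoperiod at 300 µmol photons per m2 per s, following 5 d at a constant 23°C. Under positive DIF the day was at 30°C and the night at 25°C, and under negative DIF these were exchanged. Each treatment had 3 arrays, each hybridised with RNA of 1 biological replicate labelled with Cy3.

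The evening complex is a repressor of transcription in the plant circadian clock. In Arabidopsis it forms from ELF3, a scaffold protein that also responds to temperature, ELF4, and LUX, a MYB-type DNA-binding protein that brings the complex to its target promoters. Among the Arabidopsis targets are PIF4, which promotes elongation growth in warmth, and clock genes of the pseudo-response regulator family. ZTL and FKF1 act on protein stability and not on transcription. Both are F-box proteins with a blue light-sensing LOV domain and kelch repeats, and in Arabidopsis ZTL directs the clock repressor TOC1 to degradation while FKF1, together with GIGANTEA, removes CYCLING DOF FACTOR repressors of flowering. The abundance of LUX and FKF1 transcripts cycles over the day in Arabidopsis, whereas that of ZTL changes little. All arrays here came from 1 sampling time in the middle part of the light period, when positive DIF seedlings stood at 30°C and negative DIF seedlings at 25°C. A change in the level of a transcript and a change in the timing of its daily rhythm can therefore not be told apart.

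All 6 probes were well above background on all 6 arrays and none was saturated. Between 62.2% and 67.0% of all probes were well above background on an array. Processed signals were put on the log2 scale relative to the 75th percentile of their own array, so a value of 0 is the level of the 75th percentile probe. The treatments were compared for each probe in limma, p values were adjusted by the Benjamini-Hochberg method across all probes, and every difference below is negative DIF minus positive DIF on the log2 scale. Precision is limited by how few arrays there are. Slide 1 held negative DIF replicates 1 and 2, and slide 2 held negative DIF replicate 3 and all 3 replicates of positive DIF, so that treatment and slide are partly confounded. The tissue is bulk, in which fewer cells of a type and less RNA per cell cannot be told apart. No list of epicotyl markers could be named from the sources used here, so the labelled tissue was not checked against markers. The 2 laccase genes taken as xylem markers, which the study listed for their change on these same arrays, differed widely. Their processed signals were 4.90 to 53.2 under negative DIF and 1050 to 3768 under positive DIF for Solyc05g052400. For Solyc09g010990 they were 3.79 to 18.1 and 302 to 654. The former was well above background on 4 of the 6 arrays and the latter on the 3 from positive DIF. In hypocotyl sections, the paper found similar numbers of xylem vessels under both treatments. The part of the laccase genes in the results for the clock genes was not tested.

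The fitted difference was below 0 for 6 of the 6 genes, as it was for 42.5% of all probes and 47% of the 25327 probes well above background on every array. LUX had the largest difference, at 1.75-fold lower under negative DIF, and the means of the other 5 genes were between 1.12-fold and 1.31-fold lower. At an unadjusted p under 0.05, 1 of the 6 genes was lower and 0 were higher, where 8.72% of all probes were lower and 10.2% higher. At an adjusted p under 0.05, limma called 0 of the 6 genes, against 0.495% of all probes lower and 0.425% higher. The median difference was -0.30 over the 6 genes and 0.07 over all probes. In 3 of the 6 genes every negative DIF array had a lower value than every positive DIF array, as in 12.4% of all probes.

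**Figure D1:**
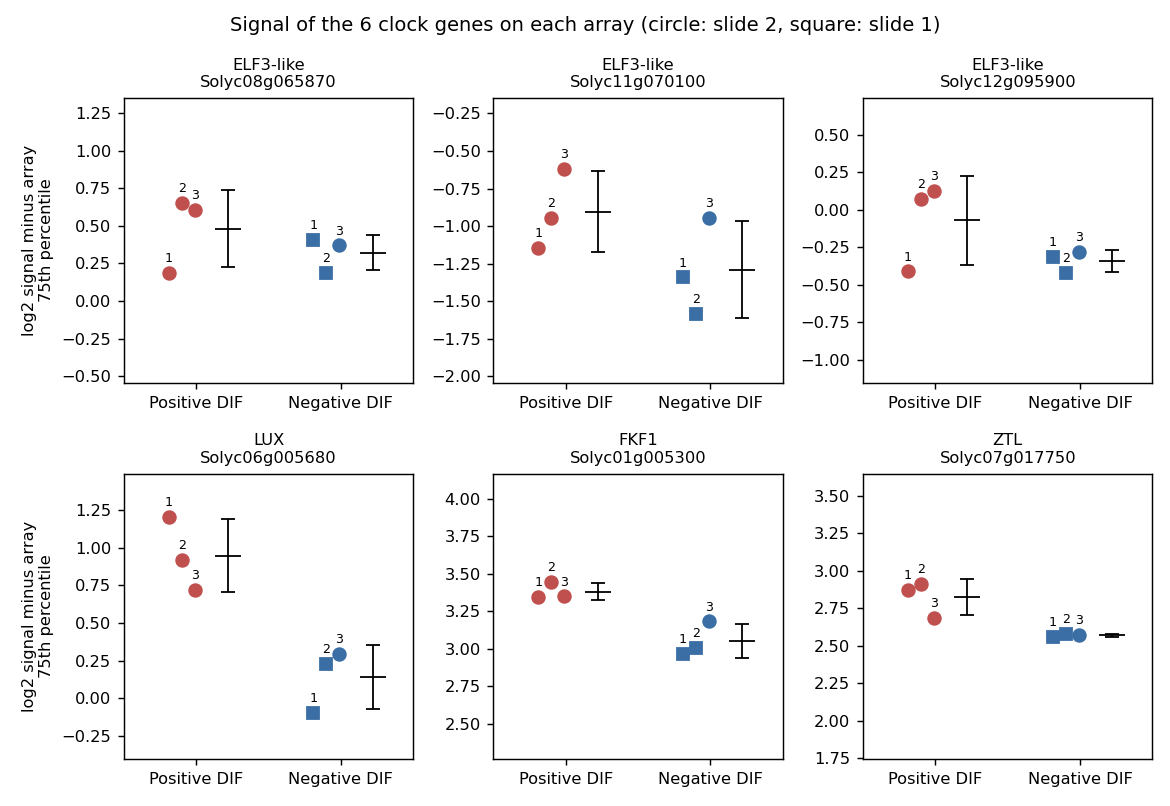
Log2 signal minus the 75th percentile of the array for each of the 6 genes; each point is 1 array, labelled with its replicate number, circles are slide 2 and squares slide 1, and the bars are the mean and SD of 3 arrays. All panels span the same range of log2 units, and the treatments are separate for LUX, FKF1 and ZTL and overlap for the 3 ELF3-like genes.

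LUX, the DNA-binding subunit of the evening complex, had the widest separation. Its processed signals were 2254, 2228 and 1924 on negative DIF replicates 1 to 3 and 3421, 2938 and 2430 on positive DIF replicates 1 to 3. Relative to the 75th percentile these were -0.10, 0.23 and 0.29 under negative DIF and 1.21, 0.92 and 0.72 under positive DIF. The highest negative DIF array was 0.43 below the lowest positive DIF array, so the treatments did not overlap. Negative DIF had a mean of 0.14 ± 0.21 (SD, n = 3 arrays), and positive DIF 0.95 ± 0.25 (SD, n = 3). The difference was -0.81 (standard error 0.22, 95% confidence interval -1.33 to -0.29, unadjusted p = 0.0088 and adjusted p = 0.127 from limma), which passed the unadjusted but not the adjusted threshold. In fold terms LUX was 1.75-fold lower, with an interval of 1.22-fold to 2.52-fold. An exact permutation test of 3 arrays against 3 gave a two-sided p of 0.1, the smallest it can give. Of all probes, 8.89% had a difference further below 0 than LUX, and of those well above background on every array 8.42% had. In either direction, 19.1% of all probes had a difference larger in size. With each array left out in turn, the difference of LUX stayed between -0.92 and -0.68 and the unadjusted p from limma was at most 0.0263. With slide as a fixed block the difference rests on slide 2, where negative DIF replicate 3 stands against the 3 positive DIF arrays, and was -0.66 (95% confidence interval -1.49 to 0.18, unadjusted p = 0.101 and adjusted p = 0.800 from limma). The unadjusted call was lost in this fit.

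**Figure D2:**
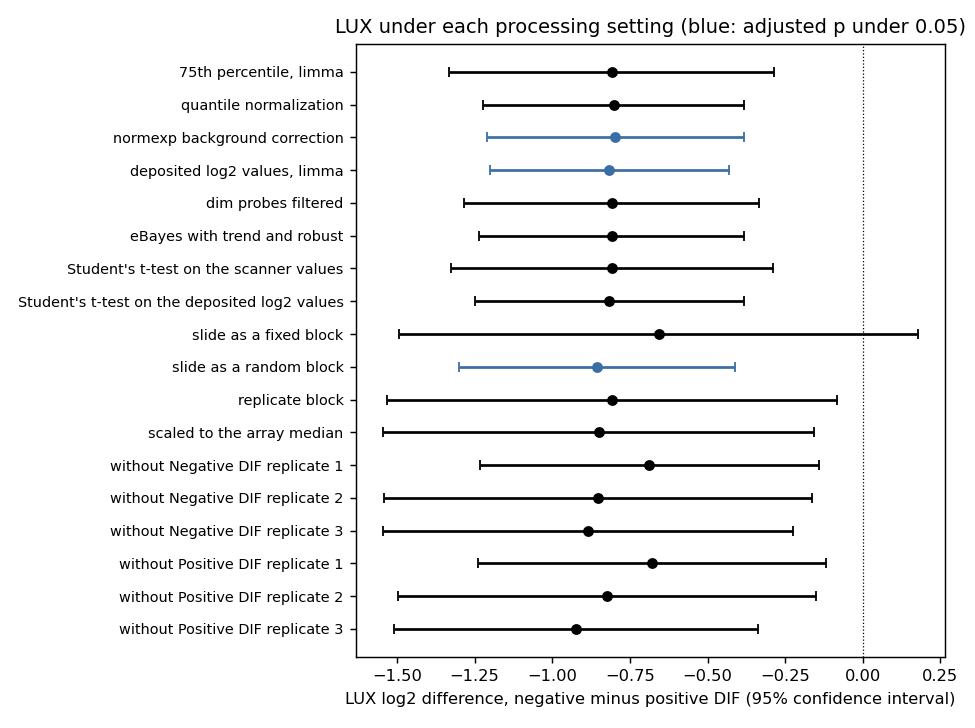
Difference of LUX, negative minus positive DIF in log2 units, under each processing setting; points are fitted differences, bars 95% confidence intervals, and blue marks an adjusted p under 0.05. The fitted difference lies between -0.92 and -0.66 in the 17 alternatives, and the interval with slide as a fixed block reaches 0.18.

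In 3 settings LUX also passed the adjusted threshold, and in each of them many more features passed as lower than the 217 of 43803 in the main setting. These were 1129 of 43803 with normexp background correction, 1173 of 33614 on the log2 values that the authors deposited and 1527 of 43803 with slide as a random block. The adjusted p of LUX from limma was 0.0439, 0.0357 and 0.0480 in the same order. The random block had a correlation within slides of -0.216. Over all 17 alternatives it ran from 0.0357 to 0.800. The difference itself moved little between these scalings, at -0.80 with quantile normalization, -0.82 on the deposited values and -0.85 when arrays were scaled to their median. It was not fitted without scaling, where the gap between the treatments was 0.11 instead of 0.43.

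The 3 ELF3-like genes, whose Arabidopsis counterpart ELF3 bridges ELF4 and LUX, overlapped between treatments, and none passed the unadjusted threshold here or in any of the 17 alternatives. Solyc08g065870 was at 0.41, 0.19 and 0.37 under negative DIF and at 0.19, 0.65 and 0.61 under positive DIF, in the order of replicates 1 to 3. Positive DIF replicate 1 was as low as the lowest negative DIF array, and 6 of the 9 pairs of arrays had the negative DIF array lower. The difference was -0.16 (standard error 0.20, 95% confidence interval -0.65 to 0.33, unadjusted p = 0.461 and adjusted p = 0.776 from limma). Solyc11g070100 was at -1.34, -1.58 and -0.94 under negative DIF and at -1.15, -0.95 and -0.62 under positive DIF. Negative DIF replicate 3, the array on slide 2, lay among the positive DIF arrays of that slide, while the arrays on slide 1 lay below all of them. The difference was -0.39 (standard error 0.25, 95% confidence interval -0.99 to 0.22, unadjusted p = 0.169 and adjusted p = 0.472 from limma), and it was -0.04 with slide as a fixed block (95% confidence interval -0.87 to 0.79). Solyc12g095900 was at -0.32, -0.42 and -0.28 under negative DIF and at -0.41, 0.07 and 0.13 under positive DIF. Here too positive DIF replicate 1 was within the range of the negative DIF arrays and the other positive DIF arrays were above it. The difference was -0.27 (standard error 0.21, 95% confidence interval -0.78 to 0.24, unadjusted p = 0.244 and adjusted p = 0.572 from limma). These intervals include both no change and a fall of more than 1.5-fold, at limits of 1.57-fold, 1.98-fold and 1.71-fold lower.

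Positive DIF replicate 1 was the lowest positive DIF array for all 3 ELF3-like genes and the highest for LUX. Without this array the differences of Solyc08g065870, Solyc11g070100 and Solyc12g095900 were -0.31, -0.51 and -0.44, with unadjusted p values from limma of 0.158, 0.119 and 0.0564, and that of LUX was -0.68. Other arrays moved the ELF3-like genes the opposite way. Solyc08g065870 was at -0.07 without positive DIF replicate 2, -0.09 without negative DIF replicate 2 and -0.10 without positive DIF replicate 3. Solyc11g070100 was at -0.24 without negative DIF replicate 2 and also without positive DIF replicate 3, and Solyc12g095900 was at -0.17 without the latter. Leaving out any 1 array left each of these 4 genes on its side of the unadjusted threshold.

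FKF1 and ZTL, the F-box proteins, had small differences with little spread between arrays. FKF1 was at 2.97, 3.01 and 3.18 under negative DIF and at 3.35, 3.45 and 3.35 under positive DIF, and the treatments were separated by 0.17. The difference was -0.33 (standard error 0.17, 95% confidence interval -0.73 to 0.07, unadjusted p = 0.0929 and adjusted p = 0.349 from limma), or 1.26-fold lower. ZTL was at 2.56, 2.58 and 2.57 under negative DIF, an SD of 0.010, and at 2.87, 2.91 and 2.69 under positive DIF, an SD of 0.12. The treatments were separated by 0.11. Its difference was -0.25 (standard error 0.16, 95% confidence interval -0.65 to 0.15, unadjusted p = 0.172 and adjusted p = 0.476 from limma), or 1.19-fold lower. The exact permutation test gave a two-sided p of 0.1 for each of these genes. FKF1 passed the unadjusted threshold in 5 of the 17 alternatives and ZTL in 3 of them, and neither passed the adjusted threshold in any. With slide as a fixed block the differences were -0.20 for FKF1 and -0.25 for ZTL, with unadjusted p values from limma of 0.482 and 0.395.

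Which genes were separate varied with the scaling between arrays, which moves all probes of an array together. Before any scaling, the processed signals of FKF1 were 18897, 15285 and 14271 under negative DIF and 15085, 16938 and 15033 under positive DIF. Those of ZTL were 14230, 11342 and 9335 under negative DIF and 10842, 11675 and 9492 under positive DIF. The treatments overlapped for both genes, with the negative DIF array lower in 4 of 9 pairs for each. The 75th percentile of the log2 signal was 11.24, 10.89 and 10.62 for negative DIF replicates 1 to 3 and 10.53, 10.60 and 10.53 for positive DIF replicates 1 to 3, so its subtraction lowered negative DIF more. With no scaling LUX was the only 1 of the 6 genes whose negative DIF arrays were all lower, as for 4.52% of all probes, and its gap narrowed from 0.43 to 0.11. With quantile normalization, with normexp and on the deposited values LUX, FKF1 and ZTL were separate, where 14.1%, 22.5% and 16.8% of all features were lower without overlap. When arrays were scaled to their median, LUX, FKF1 and Solyc12g095900 were separate and ZTL overlapped, where the share of all probes was 12.1%.

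**Figure D3:**
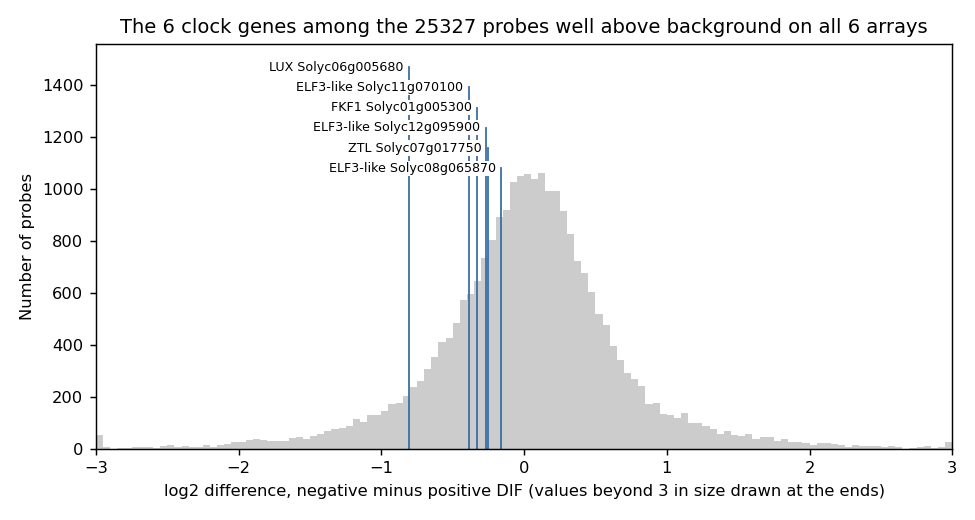
Distribution of the log2 difference, negative minus positive DIF, over the 25327 probes well above background on all 6 arrays, with the 6 genes as vertical lines; the y axis counts probes. LUX lies at -0.81, and the other 5 lie between -0.39 and -0.16, within the bulk of the distribution.

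LUX, singled out for having the largest difference of the 6 genes, was also set against each of the others by their log2 ratio within an array, which is unchanged when a single value is subtracted from the whole array. The ratio was lower under negative DIF for all 5 genes, by 0.65 for Solyc08g065870, 0.42 for Solyc11g070100, 0.54 for Solyc12g095900, 0.48 for FKF1 and 0.55 for ZTL on the log2 scale. Against Solyc08g065870, FKF1 and ZTL every negative DIF ratio was under every positive DIF ratio, and for the other ELF3-like genes they overlapped. Since LUX was chosen for its largest difference, a lower mean ratio against every other gene follows from that choice. Separate ratios are made more likely by the same choice. The share of all probes whose ratios would be separate was not computed. These values are given as a description with no test.

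Of the other genes of the clock pathway, 2 were described in the sources used here. Most of those planned could not be named, so counts over these 2 do not stand for the pathway. At the unadjusted threshold 1 of these 2 was higher, beside 10.2% of all probes higher and 8.72% lower. At the adjusted threshold 0 passed, beside 0.425% of all probes higher and 0.495% lower. The LHY/CCA1-like gene Solyc10g005080, whose Arabidopsis counterparts are morning MYB factors that repress evening genes, was listed by the study from these same arrays, which makes it no independent evidence. It was at -1.48, -1.62 and -1.81 under negative DIF and at -3.73, -2.29 and -3.58 under positive DIF. The difference was 1.56 (standard error 0.40, 95% confidence interval 0.58 to 2.54, unadjusted p = 0.0077 and adjusted p = 0.121 from limma), opposite in sign to the difference of LUX. A fixed slide block changed this difference to 1.39 with an unadjusted p of 0.0691 from limma. A link between the LHY/CCA1-like gene and LUX was not tested. SlPIF4 (Solyc07g043580), a homolog of an evening complex target in Arabidopsis, was at 1.56, 1.57 and 1.68 under negative DIF and at 1.41, 1.17 and 1.34 under positive DIF. The difference was 0.30 (95% confidence interval -0.11 to 0.70, unadjusted p = 0.127 and adjusted p = 0.408 from limma). In the paper's own real-time PCR, DIF treatment had no effect on SlPIF4. For both genes the negative DIF arrays were all above the positive DIF arrays, as for 14.6% of all probes.

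**Figure D4:**
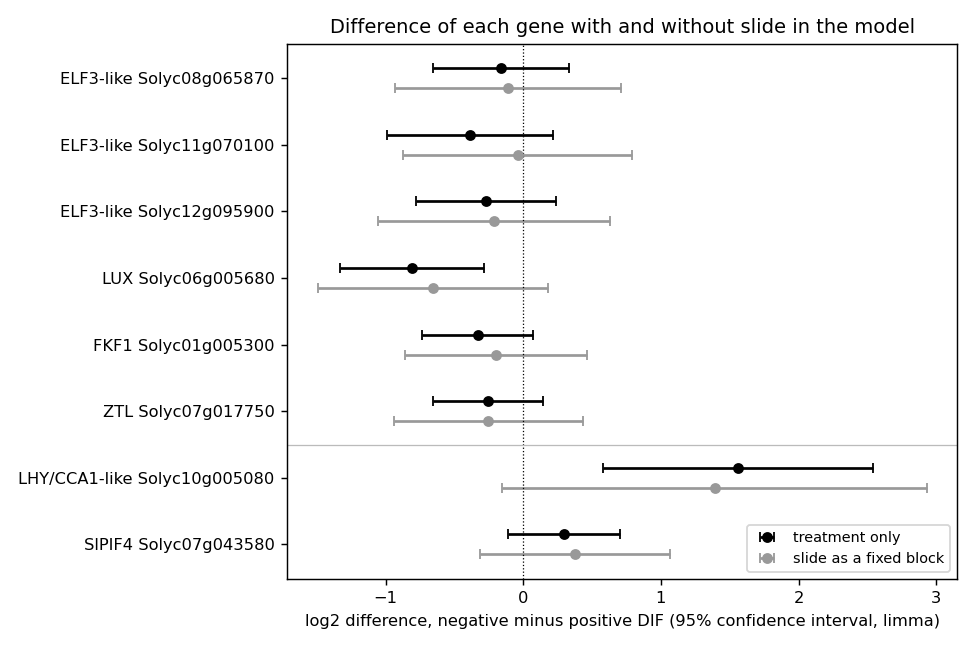
Log2 difference, negative minus positive DIF, of the 6 genes and, below the grey line, of the LHY/CCA1-like gene and SlPIF4; points are fitted differences and bars 95% confidence intervals from limma, in black with treatment as the only term and in grey with slide as a fixed block. In black, the intervals of LUX (-1.33 to -0.29) and the LHY/CCA1-like gene (0.58 to 2.54) leave out 0; in grey, all 8 intervals include it.

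The genes with the most similar pattern over the 6 arrays were sought among the 24384 probes with a tomato gene identifier that were well above background on every array, the 6 genes left out. For LUX these were Solyc06g010060, Solyc05g051690 and Solyc12g013540, with Pearson correlations of 0.9992, 0.9988 and 0.9979. For the ELF3-like genes Solyc08g065870, Solyc11g070100 and Solyc12g095900 they were Solyc11g065160 at 0.9991, Solyc11g045390 at 0.9953 and Solyc09g090350 at 0.9914. For FKF1 it was Solyc03g096990 at 0.9975 and for ZTL Solyc03g123380 at 0.9959. The sources used here describe none of these 8 genes, and the correlations share the treatments, slides and scaling of the same 6 arrays. They were also picked as the highest of the search, and no test was made of them.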

How the data were processed

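Epicotyl RNA of 3 seedling samples per treatment was labelled with Cy3 and hybridised to a custom tomato array. Per array, the authors deposited the Agilent Feature Extraction 10.10.1.1 output, whose spot intensity had its background removed and was left unscaled across arrays. They also deposited normalized log2 values of 33614 genes, by a method not given in the sources used here. The heading over these log2 columns names the opposite treatment to the scanner file whose rank order each column holds (Spearman correlation 1 over 26865 genes) and to the study's supplementary tables. The columns were used as the latter name them, as an alternative only.

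Control spots, and on 2 arrays 2 spots marked as outliers, were not used. The log2 processed signal minus the 75th percentile of the array was fitted with limma 3.58.1 in R 4.3.3, tested on simulated data, with treatment as the only term. Python 3.11.15 and scipy 1.17.1 gave the exact permutation tests. The threshold was an adjusted p under 0.05, with an unadjusted p under 0.05 beside it. The members, lists and alternatives were chosen with earlier results of these data known, and 3 alternatives were added after the files were examined (array-median scaling, the Student test on deposited values and overlap under each scaling). Named genes were all members, the clock genes described in the sources, and the genes whose signal correlated best with each member.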

Additional observations from a re-analysis of the deposited data

How the results depend on the processing

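In all 17 alternatives, all of them on scaled or normalized values, each of the 6 genes kept the sign of its difference. The difference cannot change where only the variance estimate, the test, the probes kept or the replicate block changed, so its sign was fixed. Fits without 1 array share the other arrays, so the 17 are not independent. Without scaling between arrays no difference was fitted. The negative DIF array was then lower in 9 of 9 pairs for LUX and in 5 for Solyc11g070100. For Solyc08g065870, Solyc12g095900, FKF1 and ZTL it was lower in 4. The number of arrays limited every test. Of all probes, 186 passed the adjusted threshold as higher and 217 as lower under negative DIF. Quantile normalization gave 571 higher and 695 lower, normexp with an offset of 50 gave 970 and 1129, limma on the deposited log2 values 1127 and 1173, removal of dim probes 955 and 1038, and a robust fit with a trend 889 and 921. A random slide effect, whose correlation within slides was -0.216, gave 1490 and 1527, and a fixed slide effect gave 0 and 0. The Student test, which the study's legends name for its other experiments and not for the arrays, gave 12 and 17 from scanner values and 16 and 26 from deposited values. That last setting and scaling to the array median were added after seeing the data. Leaving out 1 array gave 0 to 427 higher and 0 to 140 lower, and each of the 6 arrays moved both counts by over 1.5 times. Without negative DIF replicates 1, 2 and 3 in turn the counts were 0 and 0, 0 and 1, and 427 and 140. Without positive DIF replicates 1, 2 and 3 they were 22 and 53, 1 and 5, and 1 and 1. The cause of these differences was not tested.

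Among the 6 genes, 0 passed the adjusted threshold in the main setting, and 1, LUX, passed it as lower under normexp, under limma on the deposited values and under the random slide effect. At the unadjusted threshold 1 was lower in the main setting, beside 8.72% of all probes. This became 3 under quantile normalization (10.9% of all probes) and 3 under the Student test from scanner values (8.48%) or deposited values (11.4%). It was 2 under the robust variance prior with a trend (9.49%), 2 under the random slide effect (12.3%) and 0 under the fixed slide effect (3.5%). Of the LHY/CCA1-like gene and SlPIF4, 0 were higher at the adjusted threshold in the main setting, and 1 was under normexp and under the random slide effect. At the unadjusted threshold 1 was higher in the main setting (10.2% of all probes), 2 under quantile normalization (11.1%) and under the Student test from scanner (9.39%) or deposited values (10.9%), and 0 under the fixed slide effect (3.88%).

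Both treatments use replicate numbers 1 to 3 in their titles, but arrays with the same number deviated together only weakly, with correlations of 0.0368, 0.0595 and 0.217 over 26942 probes, and 4 of 6 arrays correlated best with their own number. The replicate block left 0 probes higher and 0 lower at the adjusted threshold. LUX was then at -0.81 (limma, unadjusted p = 0.0352, adjusted p = 0.263), and the block changed no call among the 6 genes.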
